A study of Mus musculus with 4 samples.

Results

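The 10 genes described here make and load mouse MHC class II molecules: the classical chains H2-Aa, H2-Ab1 and H2-Eb1, the transactivator Ciita, the invariant chain Cd74, the peptide exchange chains H2-DMa, H2-DMb1 and H2-DMb2, and their modulators H2-Oa and H2-Ob. They were chosen by symbol from a table of 54532 genes, and each of the 10 symbols was found once. All 10 were among the 16451 genes that passed the filter on low counts.

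RNA sequencing was done on tumor-associated macrophages (TAMs) from NB9464 neuroblastoma tumors in mice, started from 4000000 implanted cells and collected on day 40, with no treatment. NB9464 is a mouse neuroblastoma cell line. The 2 libraries M7 and M8 carry the label SYK WT (SykMC-WT mice) and the 2 libraries M9 and M10 carry the label SYK KO (SykMC-KO mice). CD11b and F4/80 magnetic beads were used to capture the TAMs, and poly(A) RNA was sequenced. The mice are of C57BL/6 background, and the SYK KO mice carry floxed Syk with a Cre recombinase driven by lysozyme M, which is active in macrophages, monocytes and neutrophils and not in macrophages alone. Per the study's methods, mice of both genotypes were 4 to 6 weeks old when the cells were injected. The labels do not say whether a library is 1 mouse or a pool, so p-values measure only the spread between these libraries, which may be technical. The labels also name bone marrow derived macrophages as the source of the RNA, and the title of the series names an adoptive transfer.

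MHC class II molecules are pairs of an alpha and a beta chain that show peptides from endosomes to CD4+ T cells. In the endoplasmic reticulum a new pair binds the invariant chain, which blocks the groove and sends the complex to endosomes. There cathepsins trim the invariant chain to a fragment called CLIP, H2-DM exchanges CLIP for peptide, and H2-O restrains H2-DM. B cells and dendritic cells transcribe most of these genes constantly, and macrophages raise most of them in response to interferon gamma, largely through CIITA. CIITA binds no DNA itself and docks on RFX, CREB and NF-Y proteins at a shared promoter module of X and Y boxes.

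Letters of that module were found in the promoters of 6 of the 7 members whose promoter the RefSeq table held (build GRCm38.p6, 250 bases before to 50 bases after the start), and it is shown here because it is a feature that the choice of members did not use. The windows of H2-Aa, H2-Eb1, H2-DMb1, H2-DMb2, H2-Oa and H2-Ob, and that of H2-Eb2, a second E beta locus outside the 10 genes, are printed 5′ to 3′ on the strand of the gene. Capitals mark AAC, part of the X box, and TGATTGG, the Y box with the inverted CCAAT that NF-Y binds.
H2-Aa, chr17:34287855-34287924, minus strand: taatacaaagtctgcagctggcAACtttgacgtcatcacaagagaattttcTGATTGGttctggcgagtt
H2-Eb1, chr17:34305756-34305824, plus strand: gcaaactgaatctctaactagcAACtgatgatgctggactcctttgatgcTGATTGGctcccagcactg
H2-Eb2, chr17:34325523-34325591, plus strand: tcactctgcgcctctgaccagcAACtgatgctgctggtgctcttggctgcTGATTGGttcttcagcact
H2-DMb1, chr17:34153077-34153146, plus strand: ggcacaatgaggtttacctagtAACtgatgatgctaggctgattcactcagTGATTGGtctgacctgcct
H2-DMb2, chr17:34145106-34145175, plus strand: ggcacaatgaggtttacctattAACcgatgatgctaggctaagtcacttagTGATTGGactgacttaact
H2-Oa, chr17:34092283-34092352, plus strand: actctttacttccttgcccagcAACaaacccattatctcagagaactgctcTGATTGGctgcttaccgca
H2-Ob, chr17:34238798-34238864, plus strand: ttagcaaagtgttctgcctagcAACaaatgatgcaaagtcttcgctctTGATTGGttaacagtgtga

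The letters were searched on both strands of 32851 promoters of the same length, with motifs that were written down after these sequences had been seen. TGATTGG stood in 7.82% of all promoters, AACNNATG in 8.86% and GCAAC in 35.2%, and both AACNNATG and GCAAC overlap the capital AAC. The pair of AAC and TGATTGG, with the AAC starting 25 to 45 bases before the Y box, stood in 2.10% of all promoters. In the 7 windows the AAC started 26 to 29 bases before TGATTGG, a narrow spacing. TGATTGG started 45 to 102 bases before the transcription start of RefSeq. By the gene positions given below, from another annotation, the windows of H2-DMb1 and H2-DMb2 lie inside the gene. That of H2-Oa crosses the start of the gene. The letters around AAC divided the windows, since AACNNATG was present in 5 and absent from H2-Aa and H2-Oa, and GCAAC was present in 5 and absent from H2-DMb1 and H2-DMb2. Neither of the 2 annotated H2-DMa promoters held TGATTGG. A match of letters is a description and not a bound site. H2-Ab1, Ciita and Cd74 have no entry in the table.

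Total counts were 20755886 to 23518045 per library. Syk itself was higher in the libraries labelled SYK KO (log2 fold change 2.80 ± 0.194 SE, edgeR's quasi-likelihood test, adjusted p = 0.000674). It had 765, 569, 4033 and 2944 counts in M7, M8, M9 and M10. Counts are totals over the whole gene, so they cannot show whether the floxed part of Syk was removed. Scaled to the 10 macrophage markers in place of all RNA, Syk gave 0.068 (edgeR adjusted p = 0.902). Scaled to 6 pan-leukocyte genes, Syk was called lower at -0.87 (edgeR adjusted p = 0.0155). Under these scalings 86.3% and 93.0% of all genes were called lower, with median log2 fold changes of -2.70 and -3.65. Directions below are those of the libraries as labelled. The 10 macrophage markers were present in every library and all 10 were higher in the libraries labelled SYK KO, with a summed level of 917 to 1294 CPM (counts scaled to a library of 1000000, TMM-normalized) against 6225 to 10373 CPM. Of these, the call for Mertk was lost with library size only, without mitochondrial and ribosomal RNA genes, by DESeq2's Wald test and without M7, M8 or M9. Of all genes, 22.7% were called higher and 16.7% lower. Of 8 fibroblast markers, 6 were lower. Their summed level was 12558 to 14452 CPM in M7 and M8, above that of the macrophage markers, against 4058 to 4960 CPM in M9 and M10. Lyz2, the lysozyme M gene that drives the Cre of the SYK KO mice, had 8109, 5115, 178 and 371 counts in M7, M8, M9 and M10 (log2 fold change -4.13, edgeR adjusted p = 0.00156). Whether the Cre allele or the mix of captured cells lowered Lyz2 was not tested. Mitochondrial genes took 2.20 to 2.34% of counts in the SYK WT libraries and 6.00 to 15.9% in the SYK KO libraries.

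Every one of the 10 genes rose in M9 and M10, labelled SYK KO, and passed edgeR's test at an adjusted p of 0.05 over all tested genes, where 22.7% of all genes were called higher and 16.7% lower. No member was lower, at an adjusted or an unadjusted p of 0.05, with edgeR or with DESeq2's Wald test, which called 19.5% of all genes higher and 15.9% lower. Their median log2 fold change was 4.78, with a range of 2.82 to 5.66, beside a median of 0.016 over all tested genes. In each of the 10 genes both SYK KO libraries were above both SYK WT libraries, which held for 38.0% of all genes. Of the 10, 9 ranked among the 500 largest increases. In bulk RNA, fewer cells of a type and less RNA per cell cannot be told apart, and whether the genotype or the mix of captured cells moved these genes was not tested. The 10 genes together took 0.0391% and 0.0427% of the counts of M7 and M8, and 0.861% and 0.742% of those of M9 and M10.

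**Figure D1:**
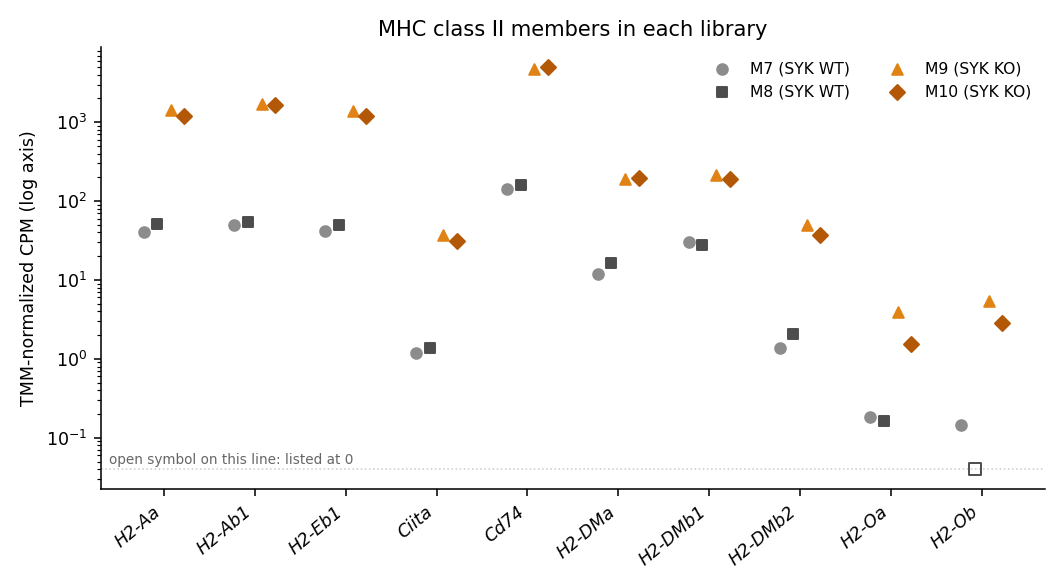
TMM-normalized CPM (log axis) of the 10 class II genes in each library; an open symbol at the bottom line is a gene listed at 0. Both SYK KO libraries lie above both SYK WT libraries for every gene, and H2-Oa and H2-Ob are the lowest.

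The classical chains rose about equally. H2-Aa (ENSMUSG00000036594, chr17:34282744-34287823), the alpha chain of I-A, measured 40.8 and 50.5 CPM in M7 and M8 and 1421 and 1202 CPM in M9 and M10. Both SYK KO libraries were far above both SYK WT libraries, at 1312 ± 155 CPM (SD, n = 2) against 45.7 ± 6.84, a log2 fold change of 4.84 ± 0.251 (SE, edgeR adjusted p = 0.000486). H2-Ab1 (ENSMUSG00000073421, chr17:34257689-34269419), the beta chain that pairs with it, measured 49.5, 55.0, 1720 and 1630 CPM in M7, M8, M9 and M10. Its groups were as widely apart, with a log2 fold change of 5.002 ± 0.234 (edgeR adjusted p = 0.000486). H2-Eb1 (ENSMUSG00000060586, chr17:34305867-34316674), the beta chain of I-E, measured 42.0, 49.1, 1393 and 1214 CPM in the same order. It rose by the same log2 amount as H2-Aa, 4.84 ± 0.237 (edgeR adjusted p = 0.000486).

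I-E needs an E alpha chain, and C57BL/6 mice carry the H2-b haplotype, in which the E alpha gene has lost its promoter. The E alpha locus is annotated as H2-Ea-ps (ENSMUSG00000036322, polymorphic pseudogene), and it had 0 counts in all 4 libraries, which allows up to 0.109 to 0.163 CPM per library. H2-Eb1 RNA was thus counted without RNA of its partner chain above that limit. H2-Eb2 had 3, 1, 29 and 29 counts in M7, M8, M9 and M10, a ratio of 19.4 between the groups with a 95% counting interval of 7.17 to 73.4 (edgeR adjusted p = 0.00997). The call for H2-Eb2 was lost without M7 (edgeR adjusted p = 0.0950), without M8 (edgeR adjusted p = 0.179) and under both marker scalings described later (edgeR adjusted p = 0.258 and 0.608).

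Ciita (ENSMUSG00000022504, chr16:10480059-10528418), which switches on the other class II genes, was counted 33 and 34 times in M7 and M8 and 772 and 572 times in M9 and M10. These are 1.20 and 1.38 CPM against 37.5 and 31.2 CPM, with no overlap of the groups. The log2 fold change was 4.73 ± 0.253 (edgeR adjusted p = 0.000486), close to those of the classical chains. The ratio of Ciita to the geometric mean of the classical chains, each per kilobase of exon, was 0.00765 and 0.00752 in M7 and M8. It was 0.00697 and 0.00653 in M9 and M10. Both SYK KO ratios were below both SYK WT ratios, by 0.17 on the log2 scale (two-sided exact permutation p = 0.333, the smallest that 2 libraries against 2 allow). Ciita thus moved nearly in step with the chains. Part of Ciita lies over Dexi on the other strand, and 2.28% of its 31-base words are shared with it. Dexi had 493, 443, 297 and 394 counts and did not share the increase.

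Cd74 was the most abundant member. It measured 143 and 159 CPM in M7 and M8 and 4789 and 4939 CPM in M9 and M10. The means were 151 ± 11.6 and 4864 ± 106 CPM, and the log2 fold change was 5.01 ± 0.281 (edgeR adjusted p = 0.000486). Cd74 made up 44.6, 44.0, 48.7 and 52.3% of the counts of the 10 genes in M7, M8, M9 and M10, so the invariant chain gave more counts than any other member. Per kilobase, the ratio of Cd74 to the geometric mean of the classical chains was 5.15, 4.91, 5.06 and 5.88. Here the groups overlapped (log2 difference 0.12, two-sided exact permutation p = 0.667). A fixed ratio is not shown by a p that misses the threshold.

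The H2-DM chains rose by unequal amounts. H2-DMa (ENSMUSG00000037649, chr17:34119541-34139101), the alpha chain of H2-DM, measured 12.1, 16.3, 192 and 194 CPM in M7, M8, M9 and M10, with a log2 fold change of 3.77 ± 0.208 (edgeR adjusted p = 0.000486). H2-DMb1 (ENSMUSG00000079547, chr17:34153072-34160230), a beta chain, measured 30.04, 27.6, 217 and 190 CPM. It had the smallest change of the 10 genes, a log2 fold change of 2.82 ± 0.170 (edgeR adjusted p = 0.000558). H2-DMb2 (ENSMUSG00000037548, chr17:34143307-34151555), the other beta chain, measured 1.39, 2.08, 49.8 and 36.7 CPM, with a log2 fold change of 4.65 ± 0.301 (edgeR adjusted p = 0.000626). The beta chain that was scarce in M7 and M8 therefore rose more, and the chains drew closer in level. The ratio of H2-DMb2 to H2-DMb1 per kilobase was 0.0444 and 0.0723 in M7 and M8 and 0.221 and 0.186 in M9 and M10, a 3.58-fold higher ratio with no overlap (two-sided exact permutation p = 0.333).

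H2-DMb1 and H2-DMb2 are near copies, and 31.4% of the 31-base words of H2-DMb1 also occur in H2-DMb2, so the split of reads between them is uncertain. Their printed promoter windows are also alike, identical at 61 of 70 positions, whereas those of H2-DMb1 and H2-Oa, of the same length, are identical at 22. Summed as 1 gene, they gave a log2 fold change of 3.01. The ratio of H2-DMa to both beta chains per kilobase was 0.188 and 0.268 in M7 and M8 and 0.354 and 0.419 in M9 and M10, higher in both SYK KO libraries by 0.78 on the log2 scale (two-sided exact permutation p = 0.333). H2-DMa shares 9.23% of its 31-base words with Brd2 on the other strand. Brd2 had 7669, 6843, 4614 and 3947 counts, lower in M9 and M10, where H2-DMa was higher. The H2-DM chains took 13.6 and 12.7% of the counts of the 10 genes in M7 and M8 and 4.67 and 4.46% in M9 and M10.

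H2-Oa and H2-Ob, the alpha and beta chain of H2-O, which is best known from B cells, were the scarcest members. H2-Oa (ENSMUSG00000024334, chr17:34092340-34095234) had 5, 4, 81 and 28 counts in M7, M8, M9 and M10, a ratio of 16.2 between the groups with a 95% counting interval of 8.21 to 36.3. The SYK KO libraries were both higher but differed from each other, at 3.93 and 1.53 CPM, and the log2 fold change was 3.94 ± 0.766 (edgeR adjusted p = 0.00995). The call for H2-Oa was lost without M7 (edgeR adjusted p = 0.0651, where 12.1% of all genes were called higher) and without M8 (edgeR adjusted p = 0.0870, with 8.58%). H2-Ob (ENSMUSG00000041538, chr17:34238903-34254414) had 4, 0, 111 and 52 counts, a ratio of 54.4 with a 95% counting interval of 20.8 to 202. H2-Ob passed the test (edgeR adjusted p = 0.00762), but its fitted log2 fold change of 5.66 depends on the prior count, because M8 is at 0, and moved to 9.45 without M7. H2-Oa shares 18.3% of its 31-base words with the antisense gene BC051537, which had at most 2 counts in any library.

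H2-O was low beside H2-DM in every library. The ratio of the H2-O chains to the H2-DM chains per kilobase was 0.00707 and 0.00518 in M7 and M8 and 0.0178 and 0.00846 in M9 and M10. Both SYK KO libraries were higher, M9 more so than M10, with a log2 difference of 1.02 (two-sided exact permutation p = 0.333). H2-Oa stood above H2-Ob per kilobase in the 3 libraries with counts of both, by 4.78 times in M7, 2.79 times in M9 and 2.06 times in M10. The M7 value rests on 5 against 4 counts. In counts, H2-Ob was above H2-Oa in M9 (111 against 81) and M10 (52 against 28). The order there thus depends on their exon lengths, 1407 bases for H2-Oa and 5380 for H2-Ob.

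Ordered by level per kilobase of exon in M9 and M10, the genes ran from Cd74 (2897 CPM per kb) through H2-Eb1 (671), H2-Ab1 (652), H2-Aa (345), H2-DMb1 (121), H2-DMa (56.0) and H2-DMb2 (24.8) to Ciita (3.60), H2-Oa and H2-Ob. H2-Eb1 and H2-Ab1 overlapped over these libraries and could not be ordered. In M7 and M8 the order was Cd74 (89.8 CPM per kb), H2-Eb1 (23.4), H2-Ab1 (20.3), H2-DMb1 (17.2), H2-Aa (12.02), H2-DMa (4.11), H2-DMb2 (0.990) and then Ciita (0.136), H2-Oa and H2-Ob, where Ciita and H2-Oa overlapped and could not be ordered. H2-DMb1 thus stood above H2-Aa in M7 and M8 and below it in M9 and M10 on this scale. The scale divides by 3798 exon bases for H2-Aa and 1681 for H2-DMb1. In CPM not divided by length, H2-Aa was above H2-DMb1 in every library, at 40.8 and 50.5 against 30.04 and 27.6 in M7 and M8. Between the SYK KO libraries, M9 was higher than M10 in 8 of the 10 genes, and between the SYK WT libraries M8 was higher than M7 in 7.

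The increase was next set against the genes of the cells that could carry it, since macrophage and leukocyte genes moved the same way. Within each library, the geometric mean of the classical chains per kilobase was divided by the geometric mean of the macrophage markers per kilobase. This ratio was 0.454 and 0.764 in M7 and M8 and 2.21 and 3.11 in M9 and M10, 4.46-fold higher with no overlap (two-sided exact permutation p = 0.333). Against 6 pan-leukocyte genes the ratio was 1.81, 2.68, 4.67 and 5.65, a smaller 2.33-fold difference (two-sided exact permutation p = 0.333). The class II chains thus rose more than either marker list on this scale, but by far less than against all RNA.

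Markers of other antigen-presenting cells also moved, beside 22.7% of all genes called higher. Of 7 dendritic cell markers, 5 rose, with a summed level of 13.6 to 15.7 CPM in M7 and M8 and 72.4 to 76.0 CPM in M9 and M10. None was at 0, and Xcr1, a receptor of cross-presenting dendritic cells, rose by 4.19 while Zbtb46 gave a log2 fold change of -0.19. B cell markers summed to 1.71 to 2.19 CPM in M7 and M8 and 8.98 to 9.37 CPM in M9 and M10, with 1 of the 4 tested called higher (Cd79b, log2 fold change 4.05) and Cr2 at 0 in M10. The ratio of the classical chains to the dendritic cell markers, again of geometric means per kilobase, was 52.5, 86.4, 278 and 224 in M7, M8, M9 and M10. To 4 B cell markers it was 127, 172, 2155 and 854. Both ratios were higher in both SYK KO libraries, 3.71-fold and 9.16-fold (two-sided exact permutation p = 0.333 for each). Of the T cell markers 4 of 7 rose and of the neutrophil markers 5 of 5. No gene of the dendritic, B, T or neutrophil lists was called higher by edgeR under the macrophage and pan-leukocyte scalings described next. Under these, 0.827% and 0.304% of all genes were called higher. At an unadjusted p of 0.05 by edgeR, 1 dendritic cell marker was higher under the macrophage scaling and 0 genes otherwise. The part of any of these cells in the class II increase was not tested. The tumor cell markers Th and Dbh were at 0 in all libraries, and Phox2a and Isl1 had at most 8 counts in any. Hand2, of the same list, had 7182, 7403, 3666 and 5257 counts in M7, M8, M9 and M10 and was not called. Gata3, also a T cell factor, had 5, 7, 24 and 40 counts and was called higher.

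**Figure D2:**
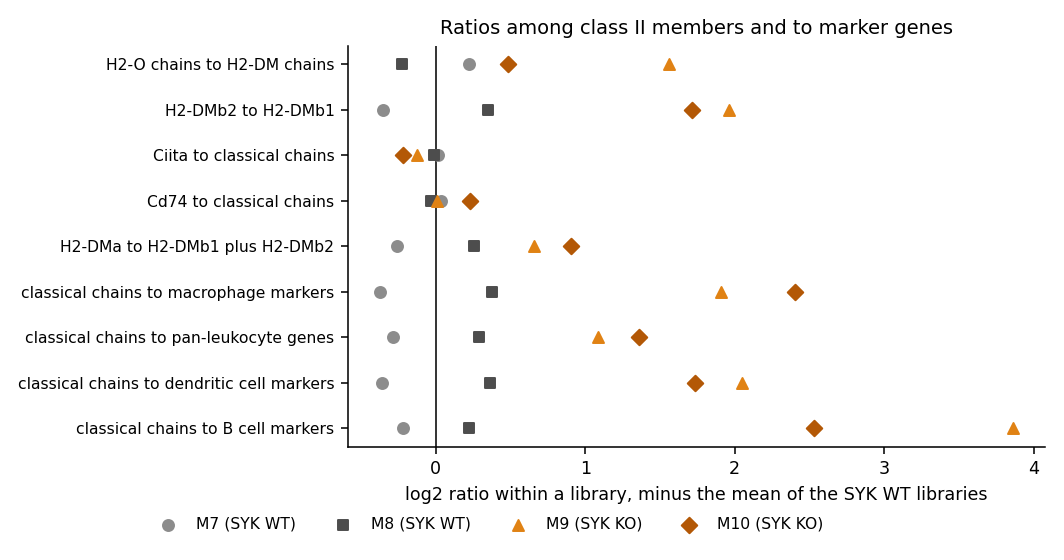
Log2 ratios within each library, minus the mean of the SYK WT libraries, for sets of class II genes and marker lists, with 1 symbol per library. The classical chains rise against the macrophage, pan-leukocyte, dendritic cell and B cell lists. The ratios of Cd74 and Ciita to the classical chains stay near the zero line, with both SYK KO ratios of Ciita below both SYK WT ratios.

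The same question was asked of each gene by scaling the libraries to those lists in place of all RNA. Scaled to the macrophage markers, 7 of the 10 genes were still called higher and none lower, adjusted or not. Their median was 2.01 on the log2 scale, and that of all genes moved to -2.70. The 3 that lost the call were H2-DMa at 1.01 (edgeR adjusted p = 0.0605), H2-DMb1 at 0.083 (edgeR adjusted p = 0.882) and H2-Oa at 1.13 (edgeR adjusted p = 0.362). Scaled to the pan-leukocyte genes, 4 genes were called higher, H2-Aa (1.14), H2-Ab1 (1.32), H2-Eb1 (1.14) and Cd74 (1.34), and H2-DMb1 was called lower at -0.86 (edgeR adjusted p = 0.0179). Ciita, at 1.04, no longer passed (edgeR adjusted p = 0.0771). The median of all genes was then -3.65. The 3 classical chains and the invariant chain were thus the members called higher under each scaling tried, while H2-DMb1 changed direction. Of all genes, 0.827% were called higher and 86.3% lower under the macrophage scaling, and 0.304% higher and 93.0% lower under the pan-leukocyte scaling. The 10 genes were also all called higher with DESeq2 size factors, with library size only, with every gene of at least 1 count and without mitochondrial and ribosomal RNA genes, where 21.1%, 10.2%, 15.7% and 20.4% of all genes were, and without M9 or without M10, where 24.8% and 28.9% were. With at least 10 counts in every library, the 8 that could be tested were called higher, as were 24.5% of all genes.

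**Figure D3:**
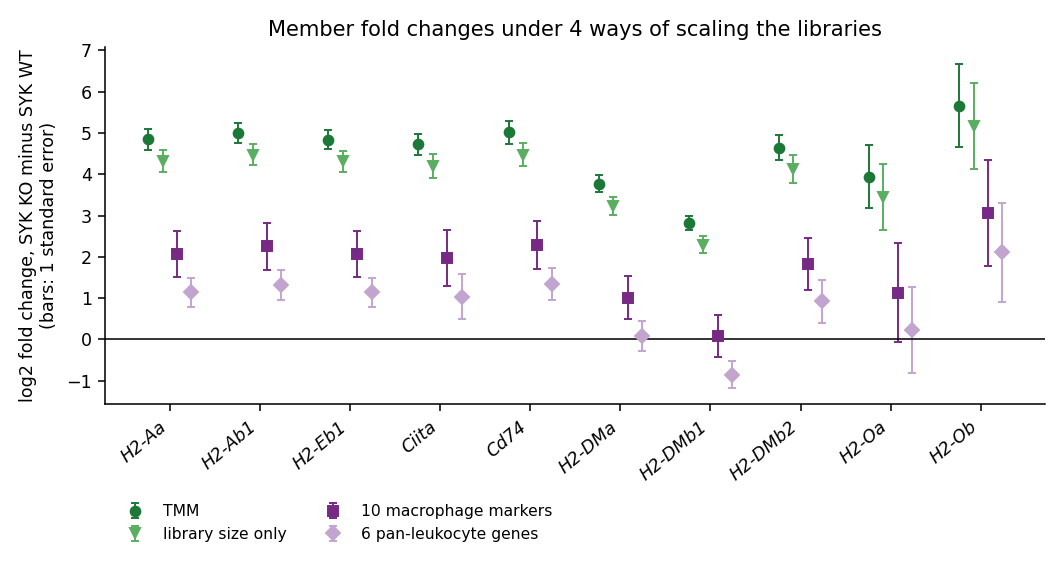
Log2 fold change (SYK KO minus SYK WT) of the 10 class II genes under each scaling of the libraries. The values fall from a median of 4.78 with TMM to 2.01 with macrophage markers and 1.09 with pan-leukocyte genes, where H2-DMb1 lies below zero.

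The other genes of the pathway were counted from lists. In them, 18 of 31 genes were called higher, 1 lower and 12 neither, beside 22.7% of all genes called higher and 16.7% lower. Their median log2 fold change was 1.33, beside 0.016 over all tested genes. The factors that hold the promoter module did not move as a group. Of 7, Rfxap rose (0.62, edgeR adjusted p = 0.0455), Rfxank fell (-0.73, edgeR adjusted p = 0.0181) and Rfx5, Nfya, Nfyb, Nfyc and Creb1 gave -0.83 to 0.18 without a call. The Rfxap call was lost with DESeq2 size factors (edgeR adjusted p = 0.0604), with library size only, with DESeq2's Wald test, with at least 10 counts, without mitochondrial and ribosomal RNA genes, without M7 and without M8. The Rfxank call was lost without M7 (edgeR adjusted p = 0.171) and without M8 (edgeR adjusted p = 0.137). Rfx5 was called lower with DESeq2 size factors (edgeR adjusted p = 0.0437), with library size only, with both other count filters, without mitochondrial and ribosomal RNA genes, without M9, without M10 and by DESeq2's Wald test. All 7 were called lower under both marker scalings, as were 86.3% and 93.0% of all genes. None of the DNA-binding partners of CIITA thus had a log2 fold change near the 4.73 of Ciita.

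The interferon gamma list, which holds the receptor and the signalling genes upstream of Ciita, was divided. Ifngr1 (1.33) and Ifngr2 (1.47) rose, whereas the log2 fold changes of Jak1, Jak2, Irf1 and Socs1 lay between -0.29 and 0.20 without a call, and all 6 were called lower under both marker scalings, as were 86.3% and 93.0% of all genes. Irf1 and Socs1 are themselves common targets of interferon gamma. Irf1 measured 58.0, 61.3, 63.0 and 71.7 CPM in M7, M8, M9 and M10, with both SYK KO libraries above both SYK WT libraries. Socs1 measured 26.6, 21.9, 18.7 and 20.9 CPM, with both below. Whether interferon gamma acted on these cells was not tested.

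Myeloid factors reported at the Ciita gene mostly rose, beside 22.7% of all genes called higher. Spi1, which encodes PU.1, had 743, 510, 5994 and 3453 counts (log2 fold change 3.32), Irf8 rose by 3.04, Irf4 by 4.12 and Stat5b by 1.44, and Stat5a gave 0.87 without a call (edgeR adjusted p = 0.113), although it was called higher without M10 and with every gene of at least 1 count. None of the 5 was called higher under the macrophage or the pan-leukocyte scaling, beside 0.827% and 0.304% of all genes. Stat5b and Stat5a turned negative under both, and Spi1 and Irf8 under that of the pan-leukocyte genes. Spi1 and Irf8 are expressed across the myeloid lineage.

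Endosomal enzymes that trim the invariant chain and antigens rose in 8 of 9 cases, beside 22.7% of all genes. The largest were Ctsh (3.44) and Ctss (3.12), the latter known for the late steps of invariant chain breakdown, followed by Ifi30 (2.70), the lysosomal thiol reductase, and Lgmn (2.54). Ctsb, Ctsd and Ctsl rose by 2.14, 2.02 and 1.71, Sppl2a by 0.70, and Ctsf gave -0.19 (edgeR adjusted p = 0.544). The Sppl2a call was lost with DESeq2 size factors (edgeR adjusted p = 0.0582), with library size only, without mitochondrial and ribosomal RNA genes, and without M7, M8 or M9. No enzyme was called higher under the macrophage or the pan-leukocyte scaling, beside 0.827% and 0.304% of all genes. Lgmn, Ifi30, Ctsb, Ctsd, Ctsl and Sppl2a turned negative under both, with Ctss and Ctsh negative under that of the pan-leukocyte genes. Of the 9 enzymes, 2 were called lower under the macrophage scaling and 7 under the pan-leukocyte scaling, beside 86.3% and 93.0% of all genes.

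Of the genes that set surface turnover, March1, a ubiquitin ligase that removes class II from the surface, rose by 2.92 and Cd83, which opposes it, by 3.07, and both turned negative under the pan-leukocyte scaling. March8, a related ligase, gave 0.041 (edgeR adjusted p = 0.847).

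**Figure D4:**
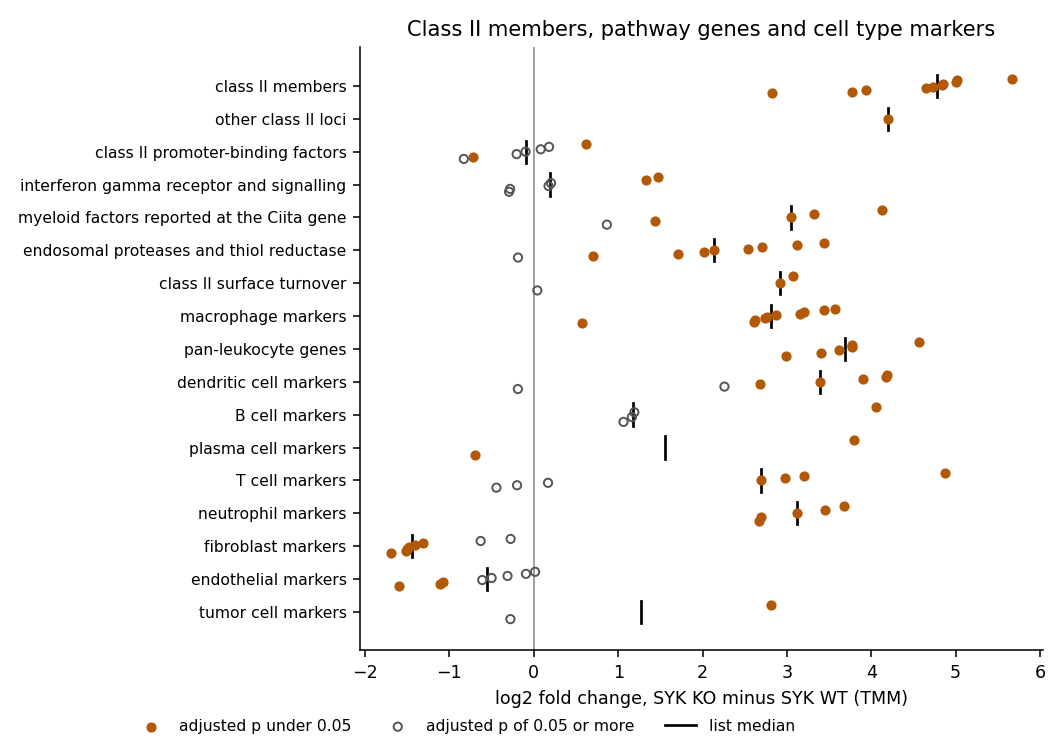
Log2 fold change (SYK KO minus SYK WT) of each tested gene in the class II lists and the marker lists, with 1 point per gene. The 10 class II members lie at 2.82 to 5.66, above the macrophage markers (0.57 to 3.57) for the most part, while the promoter-binding factors lie around zero and the fibroblast markers below it.

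The genes whose profile over the 4 libraries was most like the mean profile of the 10 genes, by the distance between centred log2 values among 14253 candidates, were F2rl2 (0.102), Napsa (0.224), Ncf4 (0.225), Spint1 (0.243) and Cd52 (0.247). F2rl2, a protease-activated receptor, had 3, 3, 92 and 61 counts in M7, M8, M9 and M10. Napsa, an aspartic protease, had 71, 71, 1284 and 1083 counts, and Cd52, a leukocyte surface glycoprotein, had 319, 251, 6145 and 4014. The members' own distances from their mean were 0.303 (Ciita) to 1.55 (H2-DMb1), and 484 other genes were nearer to it than H2-DMb1. With 4 libraries in 2 groups, such a likeness mostly says that a gene rose by a like amount.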

How the data were processed

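RNA sequencing of TAM libraries, 2 labelled SYK WT and 2 labelled SYK KO, was used. The authors deposited raw counts, whole numbers for each Ensembl gene that are not normalized, made from reads on mm10. The submitters' processing notes name STAR 2.6.1d, Salmon 1.4.0, SAMtools 1.9, Picard 2.26 and MultiQC 1.11. How whole numbers were made from Salmon's estimates, which divide reads among similar genes, and whether counting used strand are not given in the sources used here. The methods describe single HiSeq reads in triplicate, whereas the labels describe paired NovaSeq reads of 150 bases and give 2 libraries per genotype.

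Symbols, exon lengths and positions came from GENCODE M21 (GRCm38), which matched 54495 of 54532 genes. Low counts were removed by filterByExpr of edgeR in R 4.3.3. M7, M8, M9 and M10 had TMM factors of 1.22, 1.19, 0.876 and 0.787, and groups were compared by edgeR 4.0.16 (glmQLFit, glmQLFTest) with Benjamini-Hochberg adjustment at 0.05 over 16451 genes. CPM are TMM-normalized, with SDs over 2 libraries. Promoter sequences are RefSeq's. Ratios within a library used CPM per kilobase and a two-sided exact permutation test, whose smallest p is 0.333. 10 ratios were formed and 9 tested, and adjustment over them leaves none under 0.05.

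A gene at 0 was given a limit of 3 counts, and limits and intervals cover counting error only, since these reads carry no molecular identifiers. Replicates differed by more than sampling noise (chi-square per degree of freedom 50.6 for SYK WT and 168 for SYK KO). The members, gene lists and tests were chosen with earlier results of these data known. Named genes were the members, Syk, Lyz2, the pathway genes, the extremes of each marker list and the 5 nearest profiles among genes of at least 1 CPM on average. Some genes of these lists are not reported here and were left out of the lists' counts. Alternatives were DESeq2 1.42.0 (size factors and Wald test), library size only, 2 marker scalings, other count filters, H2-DMb1 and H2-DMb2 summed, removal of mitochondrial and ribosomal RNA genes, a fold change threshold and each library left out.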

Additional observations from a re-analysis of the deposited data

How the results depend on the processing

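The 10 members were higher and called under DESeq2 size factors, library size only, a filter of at least 1 count, removal of mitochondrial and ribosomal RNA genes, DESeq2's Wald test and removal of M9 or M10. H2-Oa lost its call without M7 and without M8, and H2-Oa and H2-Ob could not be tested with at least 10 counts in every library. Among the values of members, 116 kept direction and call, 10 lost the call and 1 turned. Scaled to pan-leukocyte genes, 4 members were higher and 1 lower. No paired analysis was possible because the groups share no replicate numbers. At most 5 counts per SYK WT library stand behind the values of H2-Oa, H2-Ob and H2-Eb2.

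Of all tested genes, 3729 were called higher and 2747 lower. The higher calls numbered 1677 with library size only, 136 scaled to macrophage markers, 50 scaled to pan-leukocyte genes and 2426 where a change of at least 1 on the log2 scale was required, and 1478 to 5010 with 1 library left out (1478 without M8). The lower calls numbered 5411, 14200 and 15293 under the same 3 scalings, and 807 to 4745 with 1 library left out (807 without M8). Of the 31 pathway genes, none was called higher by edgeR under the macrophage or the pan-leukocyte scaling, beside 0.827% and 0.304% of all genes. By edgeR the count was 0 also at an unadjusted p of 0.05. The pathway genes called lower, 1 in the report, were 2 with DESeq2 size factors, a filter of at least 1 count, at least 10 counts, removal of mitochondrial and ribosomal RNA genes or DESeq2's Wald test, 6 with library size only, 18 scaled to macrophage markers, 23 scaled to pan-leukocyte genes, and 0 to 4 with 1 library left out (0 without M7 or M8, where the counts at an unadjusted p of 0.05 were 0 and 2).

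Log2 fold changes of the opposite sign, whose cause was not tested beyond the shift in scale, were as follows. Scaled to macrophage markers they were Rfxap -2.08, Nfyb -2.61, Nfyc -2.73, Ifngr1 -1.43, Ifngr2 -1.21, Jak1 -2.55, Irf1 -2.54, Stat5a -1.83, Stat5b -1.35, Ctsl -1.10, Ctsb -0.66, Ctsd -0.79, Lgmn -0.24, Ifi30 -0.040, Sppl2a -2.08, March8 -2.70, Mertk -2.18, Cd79a -1.62, Cxcr2 -0.17 and Vwf -2.74. Scaled to pan-leukocyte genes they were H2-DMb1 -0.86, Rfxap -3.03, Nfyb -3.53, Nfyc -3.64, Ifngr1 -2.36, Ifngr2 -2.17, Jak1 -3.48, Irf1 -3.49, Spi1 -0.37, Irf8 -0.65, Stat5a -2.78, Stat5b -2.27, Ctss -0.57, Ctsl -2.01, Ctsb -1.58, Ctsd -1.70, Ctsh -0.22, Lgmn -1.16, Ifi30 -0.98, Sppl2a -3.00, March1 -0.78, March8 -3.64, Cd83 -0.61, Syk -0.87, Fcgr1 -0.086, Mertk -3.11, Ptprc -0.68, Cd79a -2.57, S100a9 -0.14, Cxcr2 -1.07, Vwf -3.67 and Gata3 -0.78. With library size only they were Nfyb -0.34, Nfyc -0.43, Jak1 -0.32, Irf1 -0.36, March8 -0.49 and Vwf -0.52. DESeq2's Wald test gave March8 -0.0062 and Vwf -0.039, and its size factors gave Vwf -0.030. At least 10 counts gave March8 -0.027 and Vwf -0.055, and removal of mitochondrial and ribosomal RNA genes gave Nfyc -0.0060, March8 -0.046 and Vwf -0.073. With 1 library left out, the values ran as Nfyb -0.13 to 0.38, Nfyc -0.52 to 0.47, Creb1 -0.29 to 0.0088, Jak1 -0.028 to 0.35, March8 -0.057 to 0.090, Cd8a -6.17 to 0.55, Dcn -0.83 to 0.043 and Vwf -0.32 to 0.43.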

Other observations

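The remaining marker lists were also counted, for the libraries labelled SYK KO against those labelled SYK WT. Of all genes, 22.7% were called higher and 16.7% lower. Of the T cell markers tested, Cd3e had 2, 1, 30 and 41 counts in M7, M8, M9 and M10 and rose with 3 others, and Cd8a had 5, 14, 11 and 0 counts and was not called. Among neutrophil markers S100a9 had 235, 406, 4630 and 1744 counts, higher in both SYK KO libraries. Among plasma cell markers Jchain rose from 2 and 4 counts to 37 and 29, and Sdc1, which other cells also express, fell by 0.70 on the log2 scale. Col3a1, a fibrillar collagen of fibroblasts, had 168917, 174922, 40985 and 38921 counts. Of 8 endothelial markers 3 were lower, among them Tek with 111, 120, 26 and 31 counts. Of the tumor cell markers Hand2 had 7182, 7403, 3666 and 5257 counts and was not called, and Gata3 had 5, 7, 24 and 40 counts and rose by 2.82, although it is also a T cell factor. The calls for Cd3e, Jchain, Sdc1, Tek and Gata3 were each lost by edgeR without M7 and without M8. The part of these cells in the values of the class II genes was not tested.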
